A study of Arabidopsis thaliana with 12 samples.

Results

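ABI5 and 8 related genes of Arabidopsis thaliana encode group A basic leucine zipper (bZIP) transcription factors, the proteins through which abscisic acid (ABA) signalling reaches its target promoters. The 9 genes were taken by locus identifier: ABI5 (AT2G36270), EEL (AT2G41070), AREB3 (AT3G56850), DPBF2 (AT3G44460), GBF4 (AT1G03970), ABF1 (AT1G49720), ABF2 (AT1G45249), ABF3 (AT4G34000) and ABF4 (AT3G19290). Each had 1 of the 33201 gene rows in the authors' 4 deposited tables, and 8 of the 9 were marked as tested in all 4. Whole seedlings aged 5 days were compared in 4 groups: the mutant nup1-1 on MS medium with ABA, the mutant on MS medium without it, the Col-0 wild type with ABA and Col-0 without it. The protocol text of all samples, untreated ones too, mentions medium with ABA; groups here follow the titles and the treatment label, which reads None for the groups called without ABA. Every group had 3 samples, 12 in all, the treated ones at an ABA dose that no source used here gives. NUP1 encodes a nuclear pore protein, and the study asks about its part in the breakdown of ABI5 protein by the proteasome. In the TAIR10 coordinates of the tables, ABI5 lies on chromosome 2 from 15204764 to 15207528, EEL on chromosome 2 from 17130774 to 17132386, ABF3 on chromosome 4 from 16295430 to 16298255 and the ABF4 row on chromosome 3 from 6687140 to 6693284. RNA was measured here, so the values below say nothing of protein amounts.

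ABA bound to its receptors blocks clade A protein phosphatases, which frees SnRK2 protein kinases to phosphorylate group A bZIP proteins. These proteins pair through their leucine zippers and bind the ABA-responsive element (ABRE), a promoter motif built around the letters ACGTG. ABI5 is best known for arresting the growth of germinating seeds and young seedlings in ABA, EEL for competing with ABI5 at a late embryogenesis gene promoter, and ABF2, ABF3 and ABF4 for responses to drought and salt in vegetative tissue.

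All 9 proteins have a basic region, the stretch ahead of the zipper that contacts DNA. Below are 27 coding bases from within this region in each gene, from the RefSeq annotation of TAIR10.1, 5′ to 3′ on the coding strand. They are shown because they bear on how well reads of one gene can be told from those of another. Capitals mark bases identical to those of ABI5, which is in lower case as the sequence the others were set against.
ABI5: aaccgcgagtctgctgctagatctaga
EEL: AACaGaGAaTCTGCaGCacGtTCacGA
AREB3: AACaGaGAGTCTGCTGCTcGtTCccGA
DPBF2: AACCGCGAaTCTGCgGCTcGgTCTcGA
GBF4: AACCGtGAaTCcGCTGCTAGgTCTcGA
ABF1: AAtCGgGAaTCcGCTGCTAGATCaAGg
ABF2: AACCGaGAaTCaGCTGCaAGgTCccGg
ABF3: AAtaGgGAaTCaGCTGCaAGATCccGc
ABF4: AAtCGgGAaTCaGCTGCTAGATCaAGA
Translated, all 9 stretches gave the same run of 9 amino acids, while no pair of genes had the same coding bases. ABF4, DPBF2 and GBF4 each shared 22 of the 27 bases with ABI5, ABF1 and AREB3 shared 21, ABF2 shared 19, and ABF3 and EEL shared 18. Over the whole annotated transcripts, the longest identical run between any pair of the 9 genes was 26 bases, between ABF1 and ABF4.

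The 250 bases before the annotated gene start were searched on both strands for the ABRE core. Its letters are ACGTG, which read CACGT from the other strand. The G-box was searched as CACGTG and holds that core on both strands. ABI5, with the largest ABA response of the family, and ABF3 and ABF4, which moved in opposite directions in the mutant, are printed below beside EM6 and RD29B. EM6 is a late embryogenesis abundant gene known as a target of ABI5, and RD29B is a classical target of the ABF proteins. Capitals mark the ABRE core and G-box matches. The build is RefSeq's TAIR10.1 and the windows are chr2:15207637-15207886 (minus strand, ABI5), chr4:16295084-16295333 (plus strand, ABF3), chr3:6686792-6687041 (plus strand, ABF4), chr2:16780369-16780618 (minus strand, EM6) and chr5:21236771-21237020 (plus strand, RD29B). Each sequence runs 5′ to 3′ toward the gene.
ABI5: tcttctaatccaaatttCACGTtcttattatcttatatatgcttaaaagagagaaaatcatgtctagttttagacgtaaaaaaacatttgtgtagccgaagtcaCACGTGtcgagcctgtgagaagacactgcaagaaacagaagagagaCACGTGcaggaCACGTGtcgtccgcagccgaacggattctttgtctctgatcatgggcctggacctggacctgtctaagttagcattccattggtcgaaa
ABF3: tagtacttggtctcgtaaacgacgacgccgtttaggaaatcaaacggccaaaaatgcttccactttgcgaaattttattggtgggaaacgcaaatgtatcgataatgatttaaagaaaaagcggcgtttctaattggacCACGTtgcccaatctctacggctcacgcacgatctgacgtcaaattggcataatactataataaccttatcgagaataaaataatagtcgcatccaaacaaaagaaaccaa
ABF4: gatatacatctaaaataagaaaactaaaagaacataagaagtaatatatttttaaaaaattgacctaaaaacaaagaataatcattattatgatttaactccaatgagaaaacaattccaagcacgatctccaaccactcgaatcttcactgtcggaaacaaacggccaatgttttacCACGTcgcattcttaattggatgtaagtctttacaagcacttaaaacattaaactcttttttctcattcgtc
EM6: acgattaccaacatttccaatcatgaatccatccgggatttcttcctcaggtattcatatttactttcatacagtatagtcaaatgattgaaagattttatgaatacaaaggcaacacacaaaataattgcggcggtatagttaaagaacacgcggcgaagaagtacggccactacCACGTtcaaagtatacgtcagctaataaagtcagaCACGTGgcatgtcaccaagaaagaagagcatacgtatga
RD29B: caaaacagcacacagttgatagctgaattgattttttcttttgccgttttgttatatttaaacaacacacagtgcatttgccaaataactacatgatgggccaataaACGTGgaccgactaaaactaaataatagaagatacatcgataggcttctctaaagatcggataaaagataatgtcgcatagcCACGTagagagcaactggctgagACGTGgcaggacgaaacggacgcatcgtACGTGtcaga
The ABI5 window held 3 G-boxes, with first bases at -146, -100 and -89 from the gene start, and 1 further ABRE core at -233. At least 3 G-boxes stood in 27 of 27443 promoter windows of this length, 0.0984% of them. ABF3 had 1 core at -111, ABF4 had 1 at -72, ABF1 had cores at -114 and -83, and DPBF2 had 1 at -188. No match lay in the windows of EEL, AREB3, GBF4 and ABF2, so that 5 of the 9 genes held the core (55.6%), against 22.9% of all windows. Presence of the letters is a description and not a binding site, and the windows of EEL, AREB3 and GBF4 overlap a neighbouring gene. When the window was set before the start given in the deposited tables, an alternative chosen after seeing the data, ABI5 had 2 G-boxes and ABF4 had 2 cores. The deposited start of EEL lay 1021 bases from the annotated one, and the window before it also held no core. At least 2 G-boxes stood in 240 of the 27443 windows before annotated starts, 0.875% of them.

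**Figure D1:**
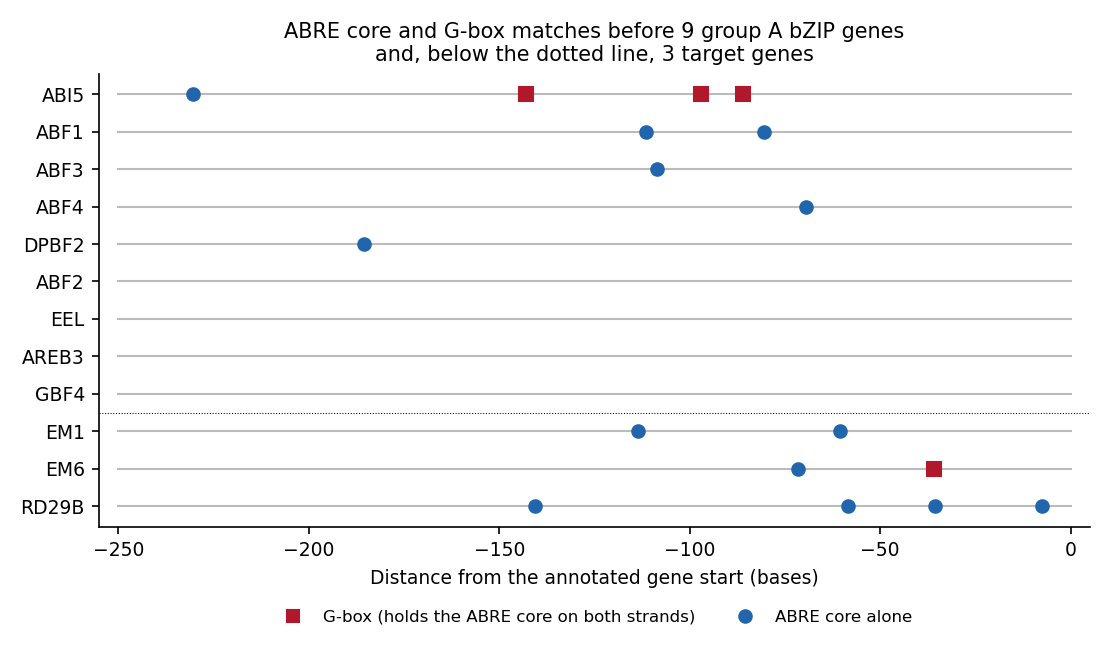
Positions of ABRE core (blue circles) and G-box (red squares) matches in the 250 bases before each annotated gene start, with the horizontal axis in bases from that start and each mark at the centre of its match. ABI5 carries 3 G-boxes and 1 further core, the 4 lowest family rows carry none, and the target genes EM1, EM6 and RD29B stand below the dotted line.

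The authors' deposited tables give 1 FPKM value (fragments scaled by transcript length and library size) per group and gene, with a p-value and a q-value adjusted over all tested genes. A gene was called at a q under 0.05. No value per sample was at hand. Library depth is therefore unknown, and errors are standard errors of log2 fold changes rebuilt from the deposited test statistic. The labels do not say that samples of a group were grown apart, so the p-values may measure technical spread alone. NUP1 itself stood at 7.47 FPKM in nup1-1 against 13.8 FPKM in Col-0 on ABA in the authors' deposited table (q = 0.000272), and at 9.23 FPKM in nup1-1 against 12.8 FPKM in Col-0 without ABA (q = 0.243). Such values do not check the mutant label, since they do not show which part of the transcript was read. Summed over 9 seed storage and oil body genes, the ABA tables held 4502 FPKM with ABA against 10.7 FPKM without it in nup1-1, and 3312 FPKM with ABA against 27.8 FPKM without it in Col-0. Over 5 photosynthesis genes the sums were 2905 FPKM with ABA against 17718 FPKM without it in nup1-1, and 12174 FPKM with ABA against 28604 FPKM without it in Col-0. The endosperm genes EPR1 and EXPA2 together had 26.01 FPKM with ABA against 0.230 FPKM without it in nup1-1, and 27.2 FPKM with ABA against 0.376 FPKM without it in Col-0. None of these genes was at 0 in any group, and the part of a seed-like or less green tissue make-up in the results below was not tested. In whole seedlings, fewer cells of a type and less RNA per cell cannot be told apart.

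Levels within a group show how ABA rearranged the family. Without ABA the most abundant members were ABF3, ABF1 and ABF4 in both genotypes, and ABI5 was the eighth of 9. In the authors' deposited table for nup1-1, ABF3 had 35.7 FPKM, ABF1 30.4 FPKM and ABF4 23.2 FPKM without ABA, while EEL had 3.32 FPKM and ABI5 2.72 FPKM. The table for Col-0 gave the same first 3 and last 3, with 32.6 FPKM for ABF3, 23.4 FPKM for ABF1, 20.1 FPKM for ABF4, 3.62 FPKM for EEL and 2.15 FPKM for ABI5. DPBF2, known from maturing seeds, was last in every group, at or below 0.0337 FPKM, and was marked as not tested in each of the authors' deposited tables. In nup1-1 without ABA it was listed at 0. With ABA, ABI5 became the most abundant member in nup1-1, with 73.4 FPKM beside 59.1 FPKM for ABF3, and the second in Col-0, with 32.8 FPKM beside 51.0 FPKM for ABF3, in the authors' deposited tables. The order among members with close levels, such as ABF2, AREB3 and GBF4 at 11.2 to 17.3 FPKM in the ABA tables, cannot be told from sample spread because the tables hold none. No test was made between members.

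As a share of the summed FPKM of the 9 genes, a measure that does not depend on how a table was scaled, ABI5 made up 31.1% in nup1-1 with ABA, 18.9% in Col-0 with ABA, 1.93% in nup1-1 without ABA and 1.79% in Col-0 without ABA. EEL took 9.09% in nup1-1 with ABA, 5.30% in Col-0 with ABA, 2.36% in nup1-1 without ABA and 3.01% in Col-0 without ABA. ABF4 went the other way, with 5.31% in nup1-1 with ABA and 11.3% in Col-0 with ABA, against 16.5% in nup1-1 and 16.7% in Col-0 without ABA. ABF3 stayed between 25.0% and 29.4% in the 4 groups of the ABA tables. The ratio of ABI5 to ABF3 was 1.24 in nup1-1 with ABA and 0.643 in Col-0 with ABA, beside 0.0761 in nup1-1 and 0.0659 in Col-0 without ABA. The sum itself was 236.0 FPKM with ABA against 140.5 FPKM without it in nup1-1, and 173.3 FPKM with ABA against 120.3 FPKM without it in Col-0, from the authors' deposited tables. Shares come from 1 value per group and carry no error.

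**Figure D2:**
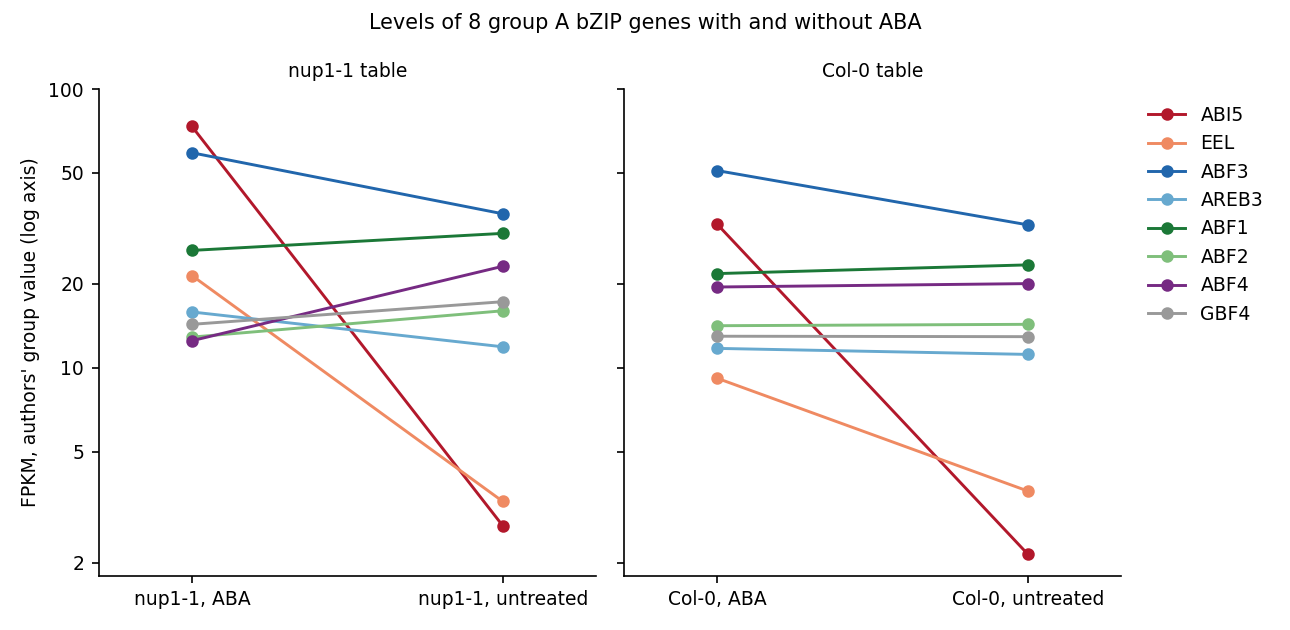
FPKM of 8 family members (log axis, 1 group value per point as the authors deposited it, no error available) with ABA on the left and without ABA on the right, in the nup1-1 table and in the Col-0 table. ABI5 and EEL are low without ABA, ABI5 passes ABF3 with ABA in nup1-1 (73.4 against 59.1 FPKM) but not in Col-0 (32.8 against 51.0 FPKM), and ABF4 in nup1-1 stands at 12.5 FPKM with ABA and 23.2 FPKM without it.

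**Figure D3:**
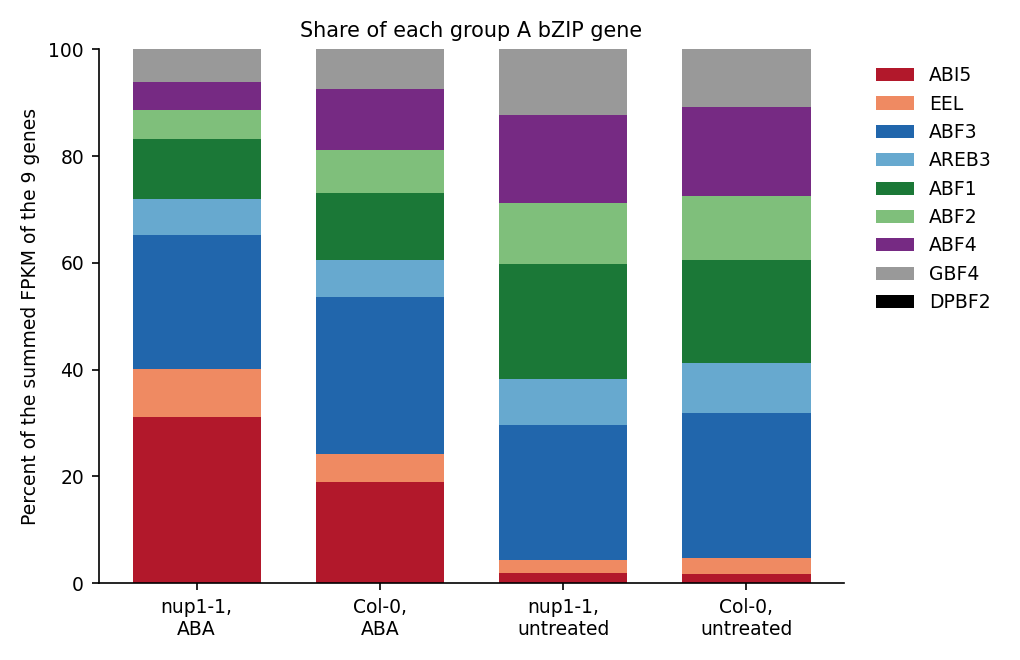
Percent of the summed FPKM of the 9 genes held by each gene in the 4 groups, 1 bar per group. The ABI5 block is 31.1% in nup1-1 with ABA, 18.9% in Col-0 with ABA and under 2% in both groups without ABA, and DPBF2 is too small to see.

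The first comparison asks how ABA changed the family in each genotype. ABA raised ABI5, EEL and ABF3 in both genotypes, and in nup1-1 it also raised AREB3 and lowered ABF4. In nup1-1, 4 of the 8 tested members were called higher and 1 lower. The background in that table was 46.6% of 20459 genes, 21.2% up and 25.3% down. In Col-0, 3 of 8 were called higher and none lower, also at an unadjusted p under 0.05. The background there was 15.6% of 20329 genes, 7.83% up and 7.79% down. The median log2 fold change of the 8 members was 0.11 in nup1-1 and 0.04 in Col-0, beside 0.00 in nup1-1 and -0.02 in Col-0 over all tested genes.

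ABI5 had 73.4 FPKM with ABA and 2.72 FPKM without it in nup1-1, a log2 fold change of 4.76 ± 0.21 (27.03-fold, 95% interval 20.4 to 35.8; q = 0.000208 in the authors' deposited table). In Col-0 it had 32.8 FPKM with ABA and 2.15 FPKM without it, 3.93 ± 0.25 (15.3-fold, 95% interval 10.8 to 21.6; q = 0.000716 in the authors' deposited table). The fitted intervals of the 2 fold changes overlap. Among all tested genes, 249 (1.22%) had a higher fold change than ABI5 in nup1-1 and 272 (1.34%) in Col-0. ABI5 was the only member in the top 2% of either table.

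EEL, whose protein binds the same promoter elements as ABI5, was second to it. It had 21.4 FPKM with ABA and 3.32 FPKM without it in nup1-1, 6.45-fold higher with a log2 fold change of 2.69 ± 0.21. In Col-0 the values were 9.19 FPKM with ABA and 3.62 FPKM without it, 2.54-fold and 1.34 ± 0.27 on the log2 scale. Both changes were called in the authors' deposited tables. A higher fold change than that of EEL was found for 494 genes in nup1-1 (2.41%) and for 917 in Col-0 (4.51%).

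AREB3, a close relative of ABI5 and EEL expressed in seeds, moved little. The authors' deposited table for nup1-1 gave 15.9 FPKM with ABA and 11.9 FPKM without it, a 1.33-fold rise that was called (log2 0.41 ± 0.16, q = 0.0256), and that for Col-0 gave 11.8 FPKM with ABA and 11.2 FPKM without it (0.07 ± 0.22, q = 0.925). GBF4, a G-box binding member, had 14.3 FPKM with ABA and 17.3 FPKM without it in nup1-1 (-0.27 ± 0.18, q = 0.213), and 13.0 FPKM with ABA and 12.9 FPKM without it in Col-0 (0.01 ± 0.23, q = 0.994), in the authors' deposited tables. Neither change of GBF4 passed the test. Its row also spans AT1G03980, a gene on the other strand with at most 0.684 FPKM in any of the tables.

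The ABF genes, which encode the members best known from water stress, were split. ABF3 had 59.1 FPKM with ABA and 35.7 FPKM without it in nup1-1 (1.66-fold, log2 0.73 ± 0.15, q = 0.000208), and 51.0 FPKM with ABA and 32.6 FPKM without it in Col-0 (1.57-fold, 0.65 ± 0.22, q = 0.0252), in the authors' deposited tables. It was the only ABF gene called in both genotypes. ABF4 had 12.5 FPKM with ABA and 23.2 FPKM without it in nup1-1, a log2 fold change of -0.89 ± 0.17, 0.541 of the level without ABA (q = 0.000208 in the authors' deposited table). In Col-0 ABF4 had 19.5 FPKM with ABA and 20.1 FPKM without it (-0.04 ± 0.23, q = 0.966). A lower fold change than that of ABF4 was found for 3566 genes in nup1-1 (17.4%), so its fall was not extreme in a table where 25.3% of genes were lower. The row of ABF4 also spans AT3G19300, a gene on the other strand, which had 1.87 FPKM with ABA and 2.40 FPKM without it in nup1-1 (q = 0.556 in the authors' deposited table).

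ABF1, a member induced by cold, and ABF2, a regulator of drought and glucose responses, were not called. ABF1 had 26.4 FPKM with ABA and 30.4 FPKM without it in nup1-1 (log2 -0.20 ± 0.25, q = 0.506), and 21.8 FPKM with ABA and 23.4 FPKM without it in Col-0 (-0.10 ± 0.32, q = 0.926), in the authors' deposited tables. Its row also spans AT1G49730, on the other strand, which had 10.4 FPKM with ABA and 21.4 FPKM without it in nup1-1 and was called lower (log2 -1.03, q = 0.00125 in the authors' deposited table). No source used here says whether the counting used strand, so reads where such neighbours overlap cannot be told apart. ABF2 had 12.9 FPKM with ABA and 16.0 FPKM without it in nup1-1 (-0.31 ± 0.16, q = 0.103), and 14.2 FPKM with ABA and 14.3 FPKM without it in Col-0 (-0.02 ± 0.22, q = 0.985), in the authors' deposited tables. These differences lay within about 2 standard errors of no change, and changes of that size were not detectable at this precision.

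**Figure D4:**
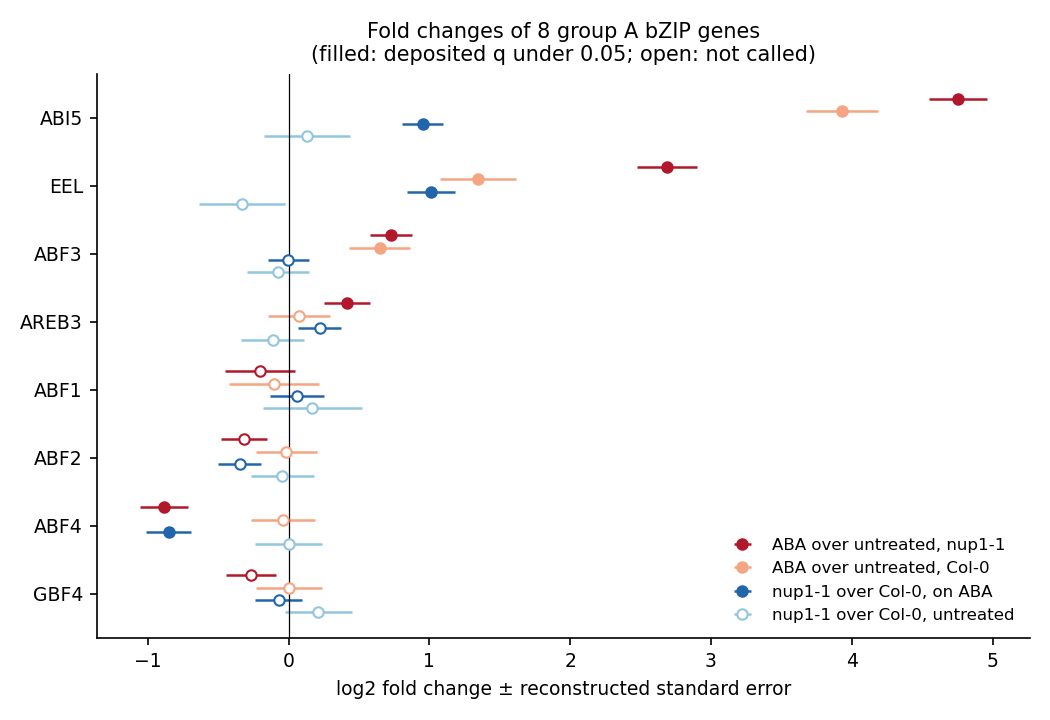
Log2 fold changes of 8 family members in the 4 comparisons, with bars of 1 rebuilt standard error, filled points for a deposited q under 0.05 and open points for genes not called. ABI5 and EEL lie far to the right in both ABA comparisons, the filled points of ABF4 lie at -0.89 and -0.85, and all 8 points for genotype without ABA are open.

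The second comparison sets nup1-1 against Col-0 on the same medium. Without ABA none of the 8 tested members was called, and none had an unadjusted p under 0.05. The background in the authors' deposited table was 6.6% of 20004 genes, 2.68% up and 3.92% down. The members' log2 differences ran from -0.33 for EEL to 0.21 for GBF4, with a median of -0.02, which is also the median over all tested genes. EEL had 2.89 FPKM in nup1-1 and 3.63 FPKM in Col-0 (-0.33 ± 0.31, q = 0.648 in the authors' deposited table). ABI5 had 2.36 FPKM in nup1-1 and 2.16 FPKM in Col-0 (0.13 ± 0.31), ABF4 20.1 FPKM in each (0.00 ± 0.24), and ABF3 31.1 FPKM in nup1-1 and 32.7 FPKM in Col-0 (-0.07 ± 0.22), in the authors' deposited table. The other 4 were as close: AREB3 had 10.4 FPKM in nup1-1 and 11.2 FPKM in Col-0 (-0.11 ± 0.23), GBF4 15.04 FPKM in nup1-1 and 13.0 FPKM in Col-0 (0.21 ± 0.24), ABF1 26.4 FPKM in nup1-1 and 23.5 FPKM in Col-0 (0.17 ± 0.35), and ABF2 13.9 FPKM in nup1-1 and 14.4 FPKM in Col-0 (-0.04 ± 0.22). The 8 standard errors ran from 0.22 to 0.35, so small differences were not detectable.

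On ABA, ABI5 and EEL were higher in nup1-1 and ABF4 was lower, so that 2 of 8 members were called higher and 1 lower. The background was 38.7% of 20327 genes, 15.4% up and 23.3% down. ABI5 had 72.9 FPKM in nup1-1 and 37.7 FPKM in Col-0, 1.93-fold more (log2 0.95 ± 0.15, q = 0.000272 in the authors' deposited table). EEL had 21.3 FPKM in nup1-1 and 10.5 FPKM in Col-0, 2.02-fold more (1.01 ± 0.17). ABF4 had 12.4 FPKM in nup1-1 and 22.5 FPKM in Col-0, 0.554 of the Col-0 level (-0.85 ± 0.16, q = 0.000272), in the authors' deposited table. Its neighbour AT3G19300 had 1.85 FPKM in nup1-1 and 2.09 FPKM in Col-0 (q = 0.784). In this table too ABI5 and EEL were near the top and ABF4 was not at the bottom. Above ABI5 stood 819 genes (4.03%) and above EEL 693 (3.41%), while 2958 (14.6%) stood below ABF4.

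ABF3, the other member that ABA raised in both genotypes, was at 58.7 FPKM in nup1-1 and 58.7 FPKM in Col-0 on ABA, a log2 difference of -0.00 with a 95% interval of -0.29 to 0.28. That interval leaves out a difference as large as the one of ABI5 or EEL. ABF2 was lower at an unadjusted p of 0.0243 and failed the adjustment, with 12.8 FPKM in nup1-1 and 16.3 FPKM in Col-0 (-0.35 ± 0.15, q = 0.0604 in the authors' deposited table). AREB3 had 15.8 FPKM in nup1-1 and 13.5 FPKM in Col-0 (0.22 ± 0.15, q = 0.258), and neither ABF1, with 26.2 FPKM in nup1-1 and 25.1 FPKM in Col-0 (0.06 ± 0.19), nor GBF4, with 14.2 FPKM in nup1-1 and 14.9 FPKM in Col-0 (-0.07 ± 0.17), passed the test. On ABA the 9 seed genes summed to 4471 FPKM in nup1-1 and 3805 FPKM in Col-0, while single genes went both ways: 2 were called higher in nup1-1, OLEO1 and OLEO2, and 4 lower, CRC, SESA1, SESA2 and SESA3, with a median log2 difference of -0.47. The endosperm genes split, with EXPA2 at 13.6 FPKM in nup1-1 and 7.61 FPKM in Col-0 and EPR1 at 12.2 FPKM in nup1-1 and 23.7 FPKM in Col-0, both called in the authors' deposited table. The 5 photosynthesis genes, all called lower, summed to 2884 FPKM in nup1-1 and 14022 FPKM in Col-0. Without ABA the 9 seed genes summed to 9.31 FPKM in nup1-1 and 27.9 FPKM in Col-0, with 3 called lower and 0 higher. The 5 photosynthesis genes then summed to 15431 FPKM in nup1-1 and 28676 FPKM in Col-0, with 0 called, in the authors' deposited table. Over all genes tested without ABA, 2.68% were called higher and 3.92% lower. The part of such differences, on either medium, in the ABI5, EEL and ABF4 values was not tested.

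The third comparison asks whether the ABA response itself differed between nup1-1 and Col-0. The log2 fold change in Col-0 was subtracted from that in nup1-1 and tested per gene by an approximate, 2-sided Wald test with the rebuilt standard errors; its q is the p adjusted by Benjamini-Hochberg over 19487 genes. EEL and ABF4 were called, and no other member. The background was 16.3% of genes called, 4.67% positive and 11.6% negative. EEL responded more strongly in nup1-1, by 1.35 ± 0.34 (95% interval 0.67 to 2.02, q = 0.00133), and 371 genes (1.90%) had a larger positive difference. ABF4 responded more negatively, by -0.85 ± 0.28 (95% interval -1.40 to -0.29, q = 0.0226). The ABI5 difference of 0.82 ± 0.33 (95% interval 0.18 to 1.47) missed the threshold at a q of 0.0675, so its larger fold change in nup1-1 is not shown to differ from that in Col-0. For ABF3 the difference was 0.08 ± 0.26, for AREB3 0.34 ± 0.27, for ABF1 -0.10 ± 0.40, for ABF2 -0.30 ± 0.27 and for GBF4 -0.27 ± 0.29, with q from 0.471 to 0.928. With standard errors taken from the deposited p-values instead, which cannot fall below 5e-05 and so give upper bounds for strong changes, q was 0.280 for EEL and 0.0833 for ABF4, and neither was called.

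Genes acting on group A bZIP proteins were listed by role, and their counts stand against the shares of all genes called: 21.2% higher and 25.3% lower with ABA in nup1-1, 7.83% and 7.79% with ABA in Col-0, 2.68% and 3.92% between genotypes without ABA, and 15.4% and 23.3% between genotypes on ABA. Of the 3 SnRK2 kinase genes that activate these proteins, SnRK2.6 was higher with ABA in nup1-1 (log2 0.68 ± 0.17) and SnRK2.3 lower (-0.62 ± 0.16) in the authors' deposited table, and none was called in the other comparisons, where 1 had an unadjusted p under 0.05 in Col-0 with ABA, 1 between genotypes without ABA and 1 in the difference of responses. Among 10 genes whose products bind ABI5 or control its turnover, 5 were higher and 1 lower with ABA in nup1-1 and 3 were higher in Col-0, with median log2 fold changes of 0.41 in nup1-1 and 0.33 in Col-0. AFP1, a repressor that binds ABI5, had 55.9 FPKM with ABA and 4.78 FPKM without it in nup1-1, and 24.9 FPKM with ABA and 3.42 FPKM without it in Col-0, in the authors' deposited tables. On ABA 3 of the 10 were higher in nup1-1: AFP1 (0.95 ± 0.18), AFP2 (0.58 ± 0.16) and KEG, a ubiquitin ligase for ABI5 (0.50 ± 0.14). SIZ1, a SUMO ligase that modifies ABI5, was the 1 gene lower with ABA in nup1-1 (-0.50 ± 0.15). The response differed between genotypes for AFP2 alone (1.01 ± 0.31, q = 0.00921).

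Of 9 genes for known regulators of ABI5 transcription, 2 were higher and 3 lower with ABA in nup1-1, and 2 were higher in Col-0, with medians of 0.02 in nup1-1 and 0.17 in Col-0. The shares over all genes were 21.2% higher and 25.3% lower in nup1-1, and 7.83% higher in Col-0. ABI3, a seed maturation factor, had 42.6 FPKM with ABA and 0.278 FPKM without it in nup1-1, and 12.8 FPKM with ABA and 0.148 FPKM without it in Col-0; on ABA it was higher in nup1-1 by 1.52 ± 0.15 in the authors' deposited table. WRKY40 and RAV1, known repressors of ABI5, had 2.01 and 13.96 FPKM with ABA, against 21.2 and 105.0 FPKM without it, in nup1-1. In Col-0 the 2 genes had 5.11 and 46.0 FPKM with ABA, against 5.64 and 61.6 FPKM without it, with no call for either (q = 0.940 and 0.227 in the authors' deposited table). The response of WRKY40 differed between nup1-1 and Col-0 by -3.25 ± 0.62 (q = 4.67e-06), that of RAV1 by -2.49 ± 0.28 (q = 5.9e-17) and that of WRKY18 by -1.38 ± 0.29 (q = 3.7e-05). On ABA, 2 of the 9 regulators were higher in nup1-1, ABI3 and ABI4, and 3 lower, WRKY40, RAV1 and HY5, a light signalling factor known to activate ABI5 (-0.49 ± 0.15), where 15.4% of all genes were higher and 23.3% lower. ABI4, an AP2-type factor of ABA signalling, had 38.7 FPKM in nup1-1 and 8.24 FPKM in Col-0 in the authors' deposited table. Whether these changes bear on ABI5 was not tested. Of the remaining group A genes, FD and bZIP13 were called in no comparison, bZIP15 was listed at 0 throughout, and FDP was lower with ABA in nup1-1 (0.186 FPKM with ABA, 0.697 FPKM without it, q = 0.0437) in the authors' deposited table.

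Downstream, 9 of 10 listed ABI5 targets were tested, and 7 were higher and 2 lower with ABA in nup1-1, against 5 higher and 1 lower in Col-0. Their median log2 fold change was 0.98 in nup1-1 and 0.86 in Col-0, beside 0.00 in nup1-1 and -0.02 in Col-0 over all tested genes. Of all genes, 21.2% were called higher and 25.3% lower with ABA in nup1-1, and 7.83% and 7.79% in Col-0. EM6, whose promoter is printed above, had 740 FPKM with ABA and 1.12 FPKM without it in nup1-1, and 290 FPKM with ABA and 1.24 FPKM without it in Col-0, in the authors' deposited tables. The response was larger in nup1-1 for EM1 (1.59 ± 0.52), EM6 (1.5 ± 0.56) and the catalase gene CAT1 (0.82 ± 0.27), and lower for PGIP2, a polygalacturonase inhibitor gene (-1.29 ± 0.30). Of 11 ABF targets, 9 were higher in nup1-1 and 10 in Col-0 with ABA, and none was lower in either table, also at an unadjusted p under 0.05, with medians of 1.55 in nup1-1 and 1.97 in Col-0. Their responses were split between genotypes: larger in nup1-1 for RD29B (1.19 ± 0.38) and the dehydrin gene RAB18 (1.15 ± 0.36), and smaller for the linker histone gene HIS1-3 (-1.83 ± 0.32), the NAC factor gene RD26 (-1.58 ± 0.33) and the phosphatase gene HAI2 (-1.43 ± 0.53). Between genotypes on ABA, 4 ABI5 targets were higher and 2 lower in nup1-1, and 3 ABF targets were higher and 3 lower, beside 15.4% higher and 23.3% lower over all genes. Of 7 seed genes tied to DPBF2, 4 were tested. With ABA, CRC, a storage protein gene, had 239 FPKM against 1.205 FPKM without it in nup1-1 (log2 7.63, q = 0.0721) and 623 FPKM against 3.93 FPKM without it in Col-0 (7.31, q = 0.000716), in the authors' deposited tables. FAD3, a fatty acid desaturase gene, was called higher with ABA in nup1-1 (0.76 ± 0.15) and had 0.18 ± 0.23 in Col-0. Between genotypes on ABA, SUS2, a sucrose synthase gene, was higher in nup1-1, and CRC and NF-YC2, a nuclear factor Y subunit gene, were lower. Without ABA, 3 of 47 tested genes of these lists were called higher in nup1-1, namely WRKY18, HIS1-3 and HAI2, and none was called lower. Of all genes tested without ABA, 2.68% were called higher and 3.92% lower in nup1-1. At an unadjusted p under 0.05, 10 of the 47 were higher and 2 lower, beside 1427 higher and 2206 lower of 20004 genes. Over all these lists, 48 of 54 genes were tested for the difference of responses, and 6 positive and 7 negative differences (nup1-1 minus Col-0) were called, beside 1 positive and 1 negative of the 8 family members and 4.67% positive and 11.6% negative over all genes.

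**Figure D5:**
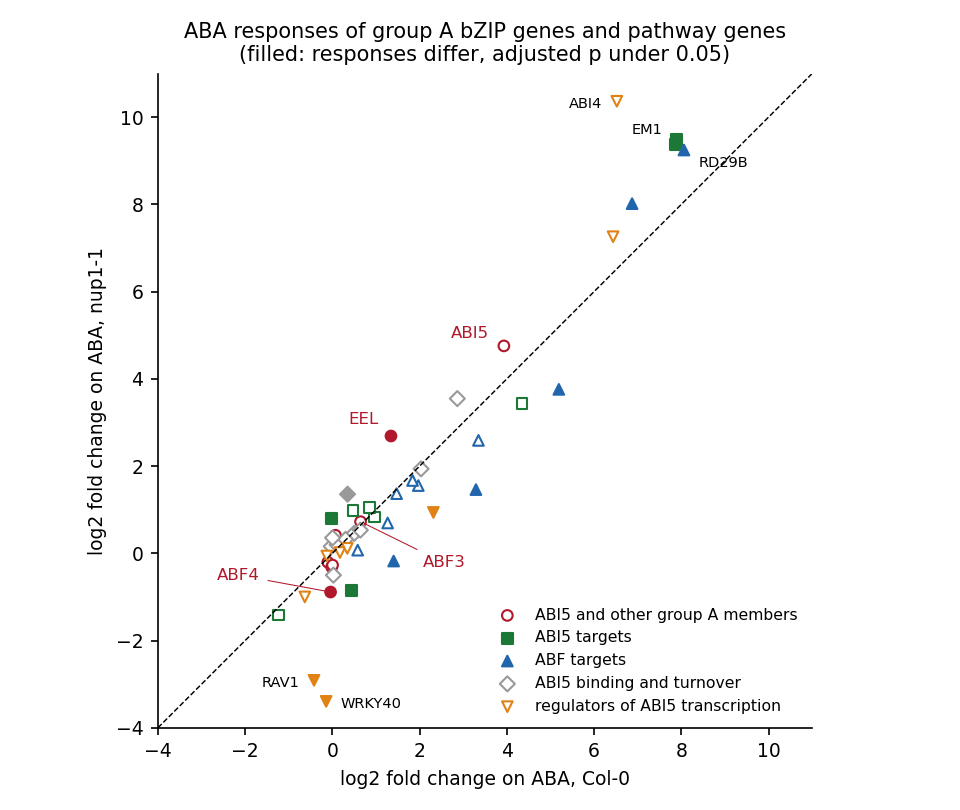
Log2 fold change with ABA in nup1-1 (vertical) against that in Col-0 (horizontal) for the tested family members and genes of 4 pathway lists, with the dashed line where both are equal and filled marks where the responses differ at an adjusted p under 0.05. EEL lies above the line (2.69 against 1.34) and ABF4 below it (-0.89 against -0.04), both filled, while ABI5 is above it but open.

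Across the 4 log2 fold changes, the genes nearest to ABI5, EEL and ABF3 were sought among the 19181 genes that every table marks as tested and that reach 1 FPKM in some group. HIPP27 was nearest to ABI5, at a Euclidean distance of 0.187 on the log2 scale, with log2 fold changes of 4.74 for ABA in nup1-1, 3.77 for ABA in Col-0, 0.08 for genotype without ABA and 1.03 for genotype on ABA. The next were AT1G24735 at 0.332, AT4G10270 at 0.499, AT5G63350 at 0.543 and AT1G31750 at 0.598. Around EEL the nearest were LEJ2 at 0.134, AT4G29690 at 0.193, AT4G22470 at 0.199, XYP1 at 0.232 and WOX12 at 0.311. For ABF3 they were AT2G04170 at 0.0268, ZAT at 0.0870, AT3G57880 at 0.1004, RSL4 at 0.105 and AT3G13650 at 0.122. The 4 comparisons share groups, so the distances describe these tables and carry no test.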

How the data were processed

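The 12 seedling libraries in 4 groups were used as 4 deposited comparison tables. The submitters' processing notes list FastQC, Trimmomatic, TopHat and TAIR10, the build; versions and the program behind the tables are not given in the sources used. The authors deposited 1 FPKM value per group and gene; that unit was read from the values, since longer loci had lower smallest values. The deposited test statistic, a score, was turned into a normal deviate with a factor of 1.74 per table to rebuild standard errors. The deposited p-value and q-value were used as they stand. Log2 fold changes were recomputed without a pseudocount. The deposited tables differ in scale: going from the ABA tables to the genotype tables moved the Col-0 ABA group by 0.20 (log2) and untreated nup1-1 by -0.20, so levels are compared only within a table. The difference of ABA responses needed 1 FPKM in the highest group.

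Sequences came from the RefSeq TAIR10.1 reference; 3661 of 26159 matched rows had the same start and end there as in the tables, on all 5 chromosomes. The 9 members, the gene lists and the tests were chosen with earlier results of these data known. All 9 members were named in each comparison, listed pathway genes could be named when called, and 5 nearest genes for each member called in both ABA tables. Calculations used Python 3.11.15, numpy 2.4.6, pandas 2.3.3 and scipy 1.17.1. The factor, the standard errors and the Wald test were tried on simulated data with normal errors of the rebuilt size. Such data cannot show whether the rebuilt errors hold for the deposited values.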

Additional observations from a re-analysis of the deposited data

Results flagged for a closer look

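For 2 family members the ABA response differed between nup1-1 and Col-0 in the Wald test of the difference itself: EEL by 1.35 and ABF4 by -0.85 on the log2 scale, nup1-1 minus Col-0. The same test singled out 13 listed pathway genes. The response was larger in nup1-1 for EM1 (1.59), EM6 (1.5), RD29B (1.19), RAB18 (1.15), AFP2 (1.01) and CAT1 (0.82). It was lower in nup1-1 for WRKY40 (-3.25), RAV1 (-2.49), HIS1-3 (-1.83), RD26 (-1.58), HAI2 (-1.43), WRKY18 (-1.38) and PGIP2 (-1.29). Among these, WRKY18, HIS1-3 and HAI2 were also called higher in nup1-1 without ABA. Of all 19487 genes tested, 16.3% were called by this test. With standard errors taken from the deposited p-values instead, neither EEL nor ABF4 was called, and a smaller share of all genes was.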

How the results depend on the processing

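No paired analysis was possible because each deposited table holds a single value per group, and leaving out a replicate was not run for the same reason. Pseudocounts of 0.1 and 1, adjustment over genes at 1 FPKM or more, and no filter changed no direction and no call of a member. Taking the difference of responses from the genotype tables also changed no call. Its direction could hardly change, since the same 4 groups enter and the median gap between both ways was -0.0078 (log2). Centring on the median of all genes turned the sign of values near 0, ABF2 in Col-0 with ABA (0.0068) and ABF3 between genotypes on ABA (0.0086), neither of them called. Asking also for a fold of 2 or more left 2 members higher and 0 lower with ABA in nup1-1, and 1 higher and 0 lower between genotypes on ABA. The share of all genes called then fell to 21.9% for ABA in nup1-1, 8.87% for ABA in Col-0, 3.5% for genotype without ABA and 13.7% for genotype on ABA. At a q under 0.01 the shares were 3.7% for genotype without ABA and 10.5% for the difference of responses, where 0 members were called lower, and ABF3 in Col-0 and AREB3 in nup1-1 lost their ABA calls. With standard errors from the deposited p, that difference called 0 members higher and 0 lower and 6.1% of genes. Over all settings, the members' fold changes kept direction and call in 267 outcomes, lost the call in 11 and changed sign in 2, and 3 motif counts moved. Many of the 267 could not have differed, so their number does not measure stability. Calls in the 4 deposited comparisons already rested on the deposited p, and a stricter threshold cannot alter a member that was not called. Depth is unknown and no spread between samples can be computed, so small changes may go undetected.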
